A study of Mus musculus with 26 samples.

Results

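Axon guidance genes encode the secreted and membrane-bound cues that growing axons meet and the receptors that read those cues. They were picked here by symbol from the deposited gene tables: the semaphorins, plexins and neuropilins, ephrins and Eph receptors, slits and robos, netrins with their receptors Dcc and Unc5, and the repulsive guidance molecules Rgma and Rgmb. The name pattern found 74 of the 55401 genes, and 71 remained after 3 antisense names were left out. They comprised 20 semaphorins, 11 plexins and neuropilins, 14 Eph receptors, 8 ephrins, 9 netrins and netrin receptors, 7 slits and robos and 2 Rgm genes.

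Semaphorins signal mainly through plexins, and the secreted class 3 semaphorins also need a neuropilin as co-receptor. Ephrins sit on the cell surface and signal through Eph receptor tyrosine kinases on the neighbouring cell, with the ephrin-bearing cell able to respond in turn. Slits repel axons that carry robo receptors, while netrins attract through Dcc and repel through Unc5 receptors. Many of these cues are known for guiding sensory axons in development, and several are known to be made again by adult sensory neurons, glia or blood vessels of injured nerves.

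The sequenced RNA came from dorsal root ganglia (DRG) of mice, where sensory neuron cell bodies lie beside the spinal cord among satellite glia, Schwann cells and vessels. The study, by its title, asked how the aryl hydrocarbon receptor (AhR, a transcription factor activated by small molecules, encoded by Ahr) bears on axon regrowth after injury. Conditional knockout (cKO) mice carried Ahr f/f with Thy1-CRE(ERT2/EYFP), a Cre recombinase that tamoxifen switches on and that the Thy1 promoter confines to cells able to use it, mainly neurons. Control mice carried floxed Ahr without Cre: Ahr fl/+ in 2 and Ahr fl/fl in 1 of the 3 naive mice, the same in the injured mice, Ahr fl/fl in all 3 cultures, and Ahr f/+ in 1 and Ahr fl/fl in 1 of the 2 sham mice.

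Naive and injured mice of both genotypes were given tamoxifen at 28 weeks of age (100 mg/kg a day for 5 days), and lumbar ganglia were taken 5 weeks later, without surgery in 3 mice per genotype and 1 day after sciatic nerve crush in 3 others per genotype. Sham surgery was done in 2 mice per genotype, and 1 day later ganglia of the operated and of the other side were collected separately. In 3 cultures per genotype, labelled semi-purified neurons, RNA was taken 24 hours after seeding. For the sham and culture mice neither age nor tamoxifen is given in the sources used here. All naive mice and all cultures were labelled female and all sham mice male.

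Total counts ran from 20169388 to 23540375 in the 12 naive and injured libraries, from 39306414 to 58751270 in the 8 sham libraries and from 25299938 to 88180611 in the 6 culture libraries. The 71 genes together took 0.296% to 0.456% of the counts of a library. In 2 injured libraries the sex read from Xist and 4 Y-linked genes went against the label: control replicate 3, labelled male, was female by its transcripts, and cKO replicate 2, labelled female, was male. By transcripts the injured cKO group thus held 1 female and 2 males, and the other 3 groups of the same table were all female. Each crush result is given below for all 12 libraries. With the genotypes averaged, the calls that did not hold without these 2 libraries or with sex in the model are named.

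In naive and crushed ganglia the mean Ahr count was no lower in cKO than in control mice. It was 18.9 to 23.8 CPM (a gene's count over the library's total count, per 1e6 and scaled by TMM) in naive control and 22.7 to 28.1 in naive cKO ganglia. After crush it was 36.2 to 38.7 CPM in control and 38.8 to 40.5 CPM in cKO mice, the cKO libraries being the higher without overlap, and neither difference was called. A count over the whole gene does not show whether the floxed part was removed. The Thy1 count did follow the labels, at 707 to 807 CPM in naive control and 1252 to 1416 CPM in naive cKO ganglia, and at 757 to 804 CPM in injured control and 1241 to 1458 CPM in injured cKO ganglia. The 2 libraries against their labelled sex followed their genotype label, at 791 CPM in injured control replicate 3 and 1458 CPM in injured cKO replicate 2. Marker genes of DRG neurons (Rbfox3, Tubb3, Uchl1, Snap25, Prph and Nefh) were detected in all libraries and summed to 5652 to 6835 CPM in the naive and injured ganglia.

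Guidance genes were widely present in uninjured ganglia. Of the 71, 68 reached a mean of 1 CPM in naive control ganglia, 46 reached 10 CPM and 8 reached 100 CPM. Counting a gene that reached the mean in at least 1 of the 10 groups, crush, sham and culture included, the numbers were 69, 53 and 18. Levels of different genes are compared here per kilobase of exon, because the deposited FPKM divided counts by the whole gene span with introns, and the span was a median of 7.03 times the exon length in these genes. On that scale Rgmb, which encodes a bone morphogenetic protein co-receptor that binds neogenin, stood highest in naive control ganglia at 53 ± 2.69 CPM per kb (SD, n = 3). Plxnc1, the receptor for semaphorin 7A, followed at 35.5 ± 1.1 CPM per kb.

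Among the semaphorins Sema7a, a membrane-anchored ligand, was at 24.6 ± 2.36 CPM per kb, Sema4f at 21.5 ± 1.67 and the secreted Sema3b at 20.6 ± 3.41. The ranges of mean ± SD of these 3 overlapped, and the genes were not compared within each mouse. Efna1 led the ephrins at 19.5 ± 1.42 CPM per kb and Ephb6, an Eph receptor without kinase activity, led its family at 10.1 ± 0.438. In the slit family the receptor Robo2 (10.2 ± 0.86 CPM per kb) and the ligand Slit1 (9.11 ± 0.805) were close together. Ntn1 stood first among the netrins and their receptors at 7.46 ± 2.91 CPM per kb, with a spread that reached Ntn4 at 5.17 ± 0.905.

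At the low end, Sema3a was at 0.0369 ± 0.0103 and Robo3 at 0.028 ± 0.0107 CPM per kb, and Robo3 was too low to be tested in the 12 naive and injured libraries. By the deposited FPKM, per gene span, the highest of each family were Rgmb at 15 ± 0.348, Sema3b at 8.77 ± 1.46, Efna1 at 3.91 ± 0.369, Plxnd1 at 2.89 ± 0.0577, Ephb6 at 2.6 ± 0.117, Ntn3 at 1.11 ± 0.0642 and Robo4 at 0.516 ± 0.0565. The Ntn3 value is uncertain, since its span holds exons of Tbc1d24, a gene with 552% as many counts. The leading gene thus depended on the length used in 4 of the 7 families.

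**Figure D1:**
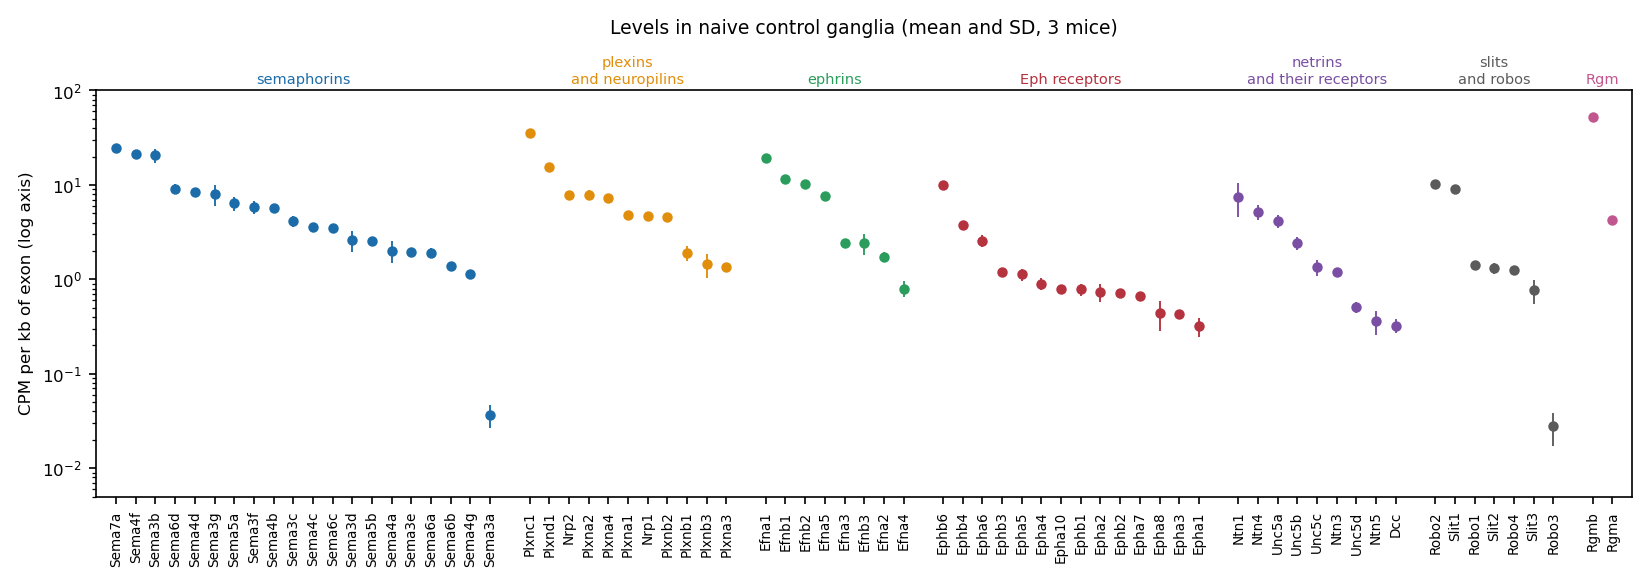
Level of each guidance gene in naive control ganglia, as CPM per kilobase of exon on a log axis, with the mean as a point and the SD over 3 mice as a bar, ordered within each family. Rgmb (53) and Plxnc1 (35.5) stand above the rest, and Sema3a and Robo3 lie far below.

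Nerve crush moved guidance genes in both directions, mostly by small amounts. With both genotypes averaged (6 injured against 6 naive mice), 31 of the 70 genes tested were called, which means an adjusted p under 0.05 by the quasi-likelihood test of edgeR. Of these 11 were higher and 20 lower. That is 44.3% of the genes tested. Over all 21261 genes of the same fit 34.1% were called, 18.4% higher and 15.7% lower. The median log2 fold change was -0.083 over the guidance genes and -0.016 over all genes. DESeq2 called 30 guidance genes.

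Only Sema6a and Plxna4 rose at least 2-fold, and no guidance gene fell by that much. In 8 of the 11 that rose, all 6 injured libraries lay above all 6 naive ones (Efna1, Epha1, Plxna4, Rgmb, Sema4c, Sema4f, Sema6a and Unc5d). In 9 of the 20 that fell, all injured libraries lay below all naive ones (Efna3, Efnb1, Efnb2, Epha6, Nrp2, Plxnd1, Robo1, Sema7a and Unc5b). The ranges overlapped in the other 14. Over all genes, 62.9% of those called higher and 47.4% of those called lower had libraries that did not overlap. In bulk tissue fewer cells of a type and less RNA per cell cannot be told apart.

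**Figure D2:**
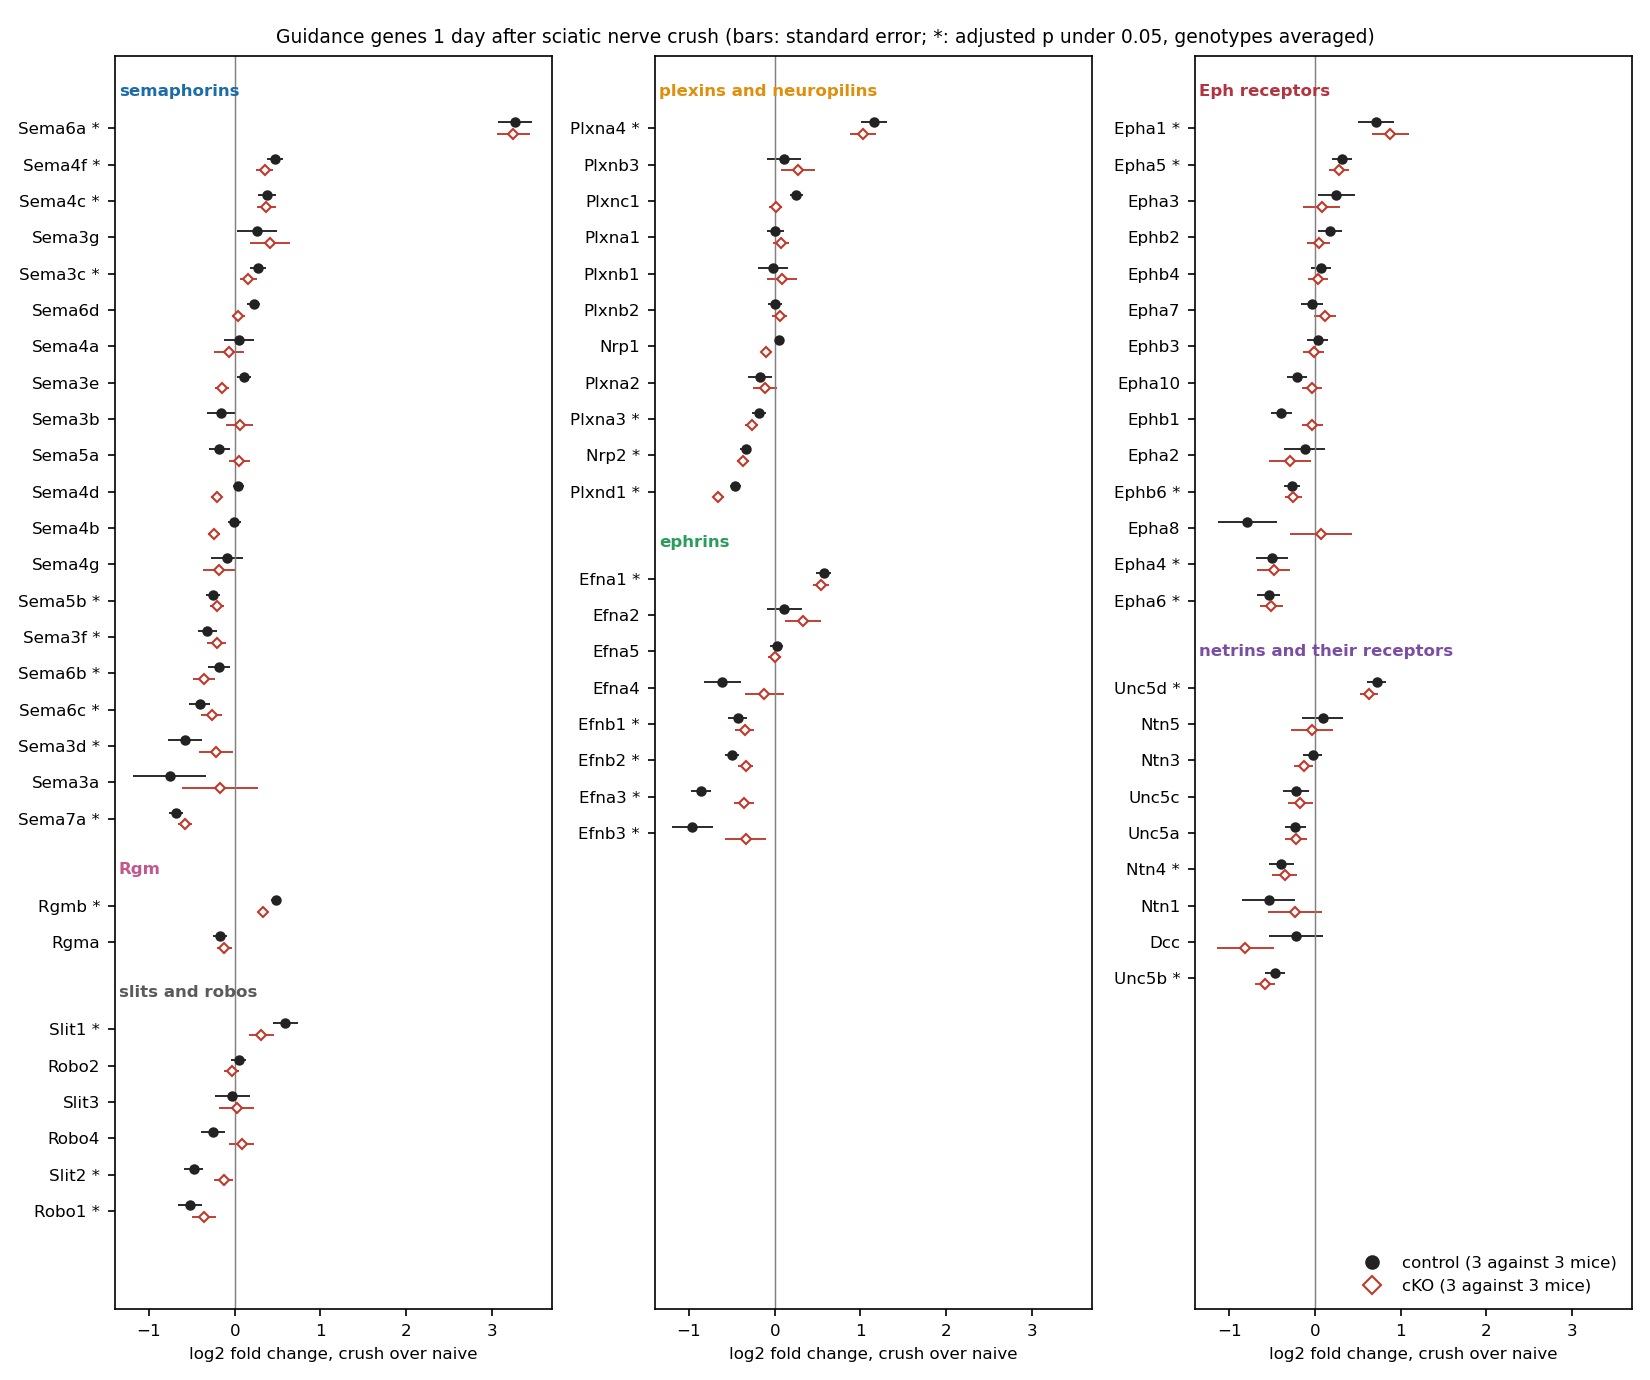
Log2 fold change of each tested guidance gene 1 day after crush, injured over naive ganglia, with its standard error as a bar, for control (filled circles) and cKO (open diamonds). Stars mark the 31 genes called with both genotypes averaged, and Sema6a stands alone near 3.26.

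Sema6a, a transmembrane semaphorin that binds A-type plexins, had the largest change. It measured 14.5, 17.4 and 18.4 CPM in the naive control mice and 16.3, 18.5 and 17.6 in the naive cKO mice. After crush it measured 144, 200 and 141 CPM in control and 122, 203 and 173 in cKO mice. Every injured library was above 120 CPM and every naive one under 19. The log2 fold change was 3.26 ± 0.136 (SE, 9.56-fold), and its adjusted p was 2.00e-08 (edgeR, quasi-likelihood). It was 3.27 in control and 3.25 in cKO. The gene lies on chromosome 18, at 47235598 to 47368870 on the minus strand of GRCm38, with no other counted gene in its span.

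Plxna4, a receptor for class 3 and class 6 semaphorins and a known partner of semaphorin 6A, rose as well. It measured 89.9, 110 and 109 CPM in naive control, 118, 105 and 136 in naive cKO, 207, 279 and 203 in injured control and 216, 297 and 222 in injured cKO mice. The injured and naive libraries did not overlap, and the log2 fold change was 1.09 ± 0.109 (adjusted p 1.28e-05, edgeR). Plxna4 was the only plexin or neuropilin called higher. The most abundant other gene within its span, the antisense Plxna4os3, had 0.977% of the Plxna4 count.

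The other 3 semaphorins that rose did so by less. Sema4f, a transmembrane semaphorin also found at synapses, went from a mean of 120 to 159 CPM, a log2 fold change of 0.41 ± 0.0687. Sema4c, a ligand of plexin-B2, went from 16.3 to 21.1 CPM (0.37 ± 0.0758). Sema3c, a secreted semaphorin, went from 29.9 to 34.7 CPM (0.22 ± 0.0665), and its call was lost under 6 of 19 alternatives, among them the fit without the 2 libraries whose sex went against the label.

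Sema7a led the semaphorins that fell. It measured 72.1, 86.7 and 84.2 CPM in naive control, 80.7, 84.8 and 84 in naive cKO, 47.5, 49.1 and 55.6 in injured control and 54.3, 59.7 and 52.4 in injured cKO mice. No injured library reached the lowest naive value, and the log2 fold change was -0.63 ± 0.0571 (adjusted p 6.00e-06, edgeR). Its receptor Plxnc1 was not called with the genotypes averaged, at a mean of 315 CPM in naive and 344 CPM in injured ganglia (adjusted p 0.0771, edgeR).

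The other 5 semaphorins called lower were Sema3d, Sema6c, Sema6b, Sema3f and Sema5b, with log2 fold changes from -0.40 to -0.23. Sema3d went from a mean of 20.6 to 15.5 CPM and Sema6c from 19.9 to 15.7 CPM. All 5 had overlapping ranges. The span of Sema5b also holds exons of Gm5963, with 33.1% as many counts and no call (-0.061 ± 0.0763), so its value is uncertain. The remaining 10 of the 20 semaphorins were not called, among them the abundant Sema3b (0.053 lower on the log2 scale, SE 0.112) and Sema5a (0.063 lower, SE 0.0854).

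Among the receptors for semaphorins the falling genes were Plxnd1, Nrp2 and Plxna3. Plxnd1, the receptor for semaphorin 3E, known from both vessels and neurons, measured 109, 114 and 115 CPM in naive control and 130, 125 and 117 in naive cKO mice. After crush it measured 74.8, 89.5 and 81.5 CPM in control and 80.4, 75.5 and 80 in cKO mice. The groups did not overlap, and the log2 fold change was -0.56 ± 0.0468 (adjusted p 3.37e-06, edgeR). Its ligand gene Sema3e was at a mean of 20.2 CPM in naive and 19.9 CPM in injured ganglia and was not called.

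Nrp2, the co-receptor that prefers semaphorin 3F, went from a mean of 97.7 to 76.4 CPM without overlap (log2 fold change -0.35 ± 0.0473). Nrp1, which prefers semaphorin 3A, was at 47.9 CPM in naive and 47 CPM in injured ganglia (-0.025 ± 0.0375, not called). Plxna3, on the X chromosome, was 0.22 lower on the log2 scale (SE 0.0561), from 11.9 to 10.2 CPM, with overlapping ranges.

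In the ephrin family 1 ligand rose and 4 fell, and the riser and a faller sit side by side on the minus strand of chromosome 3: Efna1 at 89271733 to 89281142 and Efna3 at 89313899 to 89322965 (GRCm38). Efna1 measured 38.3, 35.5 and 33.1 CPM in naive control, 40.4, 38.3 and 33 in naive cKO, 56.8, 53.4 and 49 in injured control and 51.7, 59.9 and 51.1 in injured cKO mice. Efna3 measured 5.48, 6.23 and 6.07 CPM in naive control, 6.13, 4.58 and 5.02 in naive cKO, 3.3, 3.03 and 3.5 in injured control and 4.25, 3.91 and 4.1 in injured cKO mice. Neither gene had injured and naive libraries that overlapped. The log2 fold change was 0.56 ± 0.0647 for Efna1 (adjusted p 4.16e-05) and -0.61 ± 0.0845 for Efna3 (adjusted p 0.000164, both edgeR). The span of Efna3 holds exons of Gm15998, a gene with 31.1% as many counts that was at -0.35 ± 0.133 and not called, and the counting did not part such shared stretches.

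The promoters of these neighbours are shown because the genes moved in opposite directions. Each window is 300 bases of GRCm38.p6 from RefSeq, 250 before and 50 from the transcript start on, printed on the gene's strand, with GCGTG (on either strand) in capitals, the core of the DNA site bound by AhR. The Efna1 window is chr3:89280902-89281201 and the Efna3 window is chr3:89322890-89323189.
Efna1: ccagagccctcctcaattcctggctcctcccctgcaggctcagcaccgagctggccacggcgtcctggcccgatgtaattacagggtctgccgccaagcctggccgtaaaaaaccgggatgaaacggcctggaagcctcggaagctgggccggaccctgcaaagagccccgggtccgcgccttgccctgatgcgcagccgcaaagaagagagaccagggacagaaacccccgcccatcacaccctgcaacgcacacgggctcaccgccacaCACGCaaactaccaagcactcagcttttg
Efna3: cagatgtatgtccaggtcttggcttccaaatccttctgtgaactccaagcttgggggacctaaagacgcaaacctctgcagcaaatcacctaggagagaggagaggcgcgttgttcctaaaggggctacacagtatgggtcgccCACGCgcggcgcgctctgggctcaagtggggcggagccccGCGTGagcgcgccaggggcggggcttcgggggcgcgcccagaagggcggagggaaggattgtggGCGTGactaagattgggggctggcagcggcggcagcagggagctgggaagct
The Efna1 window holds 1 match and the Efna3 window holds 3. The other RefSeq start of Efna1 had 0 matches and the other start of Efna3 had 3.

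The 3 B-type ephrins, transmembrane ligands that signal back into their own cell, all fell. Efnb2, known as a marker of arteries, went from a mean of 67.5 to 50.4 CPM (log2 fold change -0.42 ± 0.0604) and Efnb1, on the X chromosome, from 38.2 to 29.1 CPM (-0.39 ± 0.0778), both without overlap. Efnb3 went from 6.54 to 4.11 CPM (-0.65 ± 0.166) with overlap, and its call was lost with sex as a covariate. Efna2, Efna4 and Efna5 were not called.

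Among the Eph receptors 2 were called higher and 3 lower. Epha5, a receptor for A-type ephrins abundant in neurons, went from a mean of 20 to 24.6 CPM (log2 fold change 0.30 ± 0.0823), a call that was lost with sex as a covariate. Epha1 was called higher, at 1.18 CPM in naive and 2.04 CPM in injured ganglia (0.80 ± 0.151), but its span holds exons of Zyx, a focal adhesion gene with far more counts that also rose (0.44 ± 0.0576), so the Epha1 value is uncertain. Epha6 (-0.53 ± 0.0956, from 14.3 to 9.9 CPM), Epha4 (-0.49 ± 0.133, from 7.11 to 5.06) and Ephb6 (-0.26 ± 0.0671, from 39 to 32.5) were lower. Epha6 shares its span with 4930547E14Rik, which fell too (-0.58 ± 0.102). The other 9 Eph receptors were not called.

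Of the netrin receptors 1 rose and 1 fell. Unc5d measured 4, 4.97 and 5.21 CPM in naive control, 5.43, 5.18 and 5.87 in naive cKO, 8.07, 8.22 and 7.04 in injured control and 8.23, 8.49 and 8.84 in injured cKO mice. Unc5b, which is also known from endothelial tip cells, measured 12.6, 17.5 and 15.4 CPM in naive control, 16.2, 17 and 19.6 in naive cKO, 10.3, 11.6 and 10.9 in injured control and 12.6, 11.2 and 11.6 in injured cKO mice. All injured libraries were above all naive ones for Unc5d (log2 fold change 0.67 ± 0.077, adjusted p 3.68e-05). For Unc5b the highest injured and the lowest naive library were both at 12.6 CPM to 3 digits, with the injured one the lower, and the change was -0.53 ± 0.0821 (adjusted p 0.000382, both edgeR). Both genes encode receptors for netrin-mediated repulsion. The ligand Ntn4 fell (-0.37 ± 0.102, from a mean of 18 to 13.9 CPM), while Ntn1 spread too widely to be called (-0.39 ± 0.22).

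In the slit family 1 ligand rose and 1 fell. Slit1, made by neurons, went from a mean of 59.1 to 80.4 CPM (log2 fold change 0.45 ± 0.102), a call lost with sex as a covariate, and Slit2 from 31.7 to 25.7 CPM (-0.31 ± 0.0805). The receptor Robo1 fell from 23.1 to 17 CPM without overlap (-0.44 ± 0.096), while the more abundant Robo2 was at 181 CPM in naive and 182 CPM in injured ganglia and was not called.

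Rgmb, the most abundant gene of the set per exon length, rose with little spread. It measured 389, 429 and 401 CPM in naive control, 459, 424 and 445 in naive cKO, 583, 568 and 549 in injured control and 525, 573 and 571 in injured cKO mice. The lowest injured library was above the highest naive one, and the log2 fold change was 0.40 ± 0.0401 (adjusted p 1.21e-05, edgeR). Its relative Rgma was not called (-0.14 ± 0.0605).

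Markers of other cell types were read from the same fit. Of 6 neuronal markers 0 were higher and 1, Rbfox3, was lower (-0.20). Of 5 endothelial markers 0 were higher and 1, Cldn5, was lower (-0.53), and their summed level was 106 to 186 CPM in naive and 119 to 135 CPM in injured libraries. Of 5 markers each of myelinating Schwann cells and macrophages 0 were called. Of 4 neutrophil markers 0 were called, with a median log2 fold change of -1.08 (-1.30 to -0.92), and of -1.71 in cKO mice alone. Their summed level was 105 to 643 CPM in naive and 51.7 to 373 CPM in injured libraries. Among satellite glia markers Glul (0.53) and Kcnj10 (0.29) were higher and Fabp7 (-0.23) was lower. Among mural cell markers Rgs5 (0.32) was higher and Pdgfrb (-0.28) lower, the fibroblast marker Lum (-0.42) and the T cell marker Cd3e (-0.97) were lower, the fibroblast marker Col1a1 (-0.61) was not called, and 0 of 3 skeletal muscle and 0 of 2 adipocyte markers were called. None of these markers was at 0 in every library of a group, and their part in the guidance results was not tested.

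**Figure D3:**
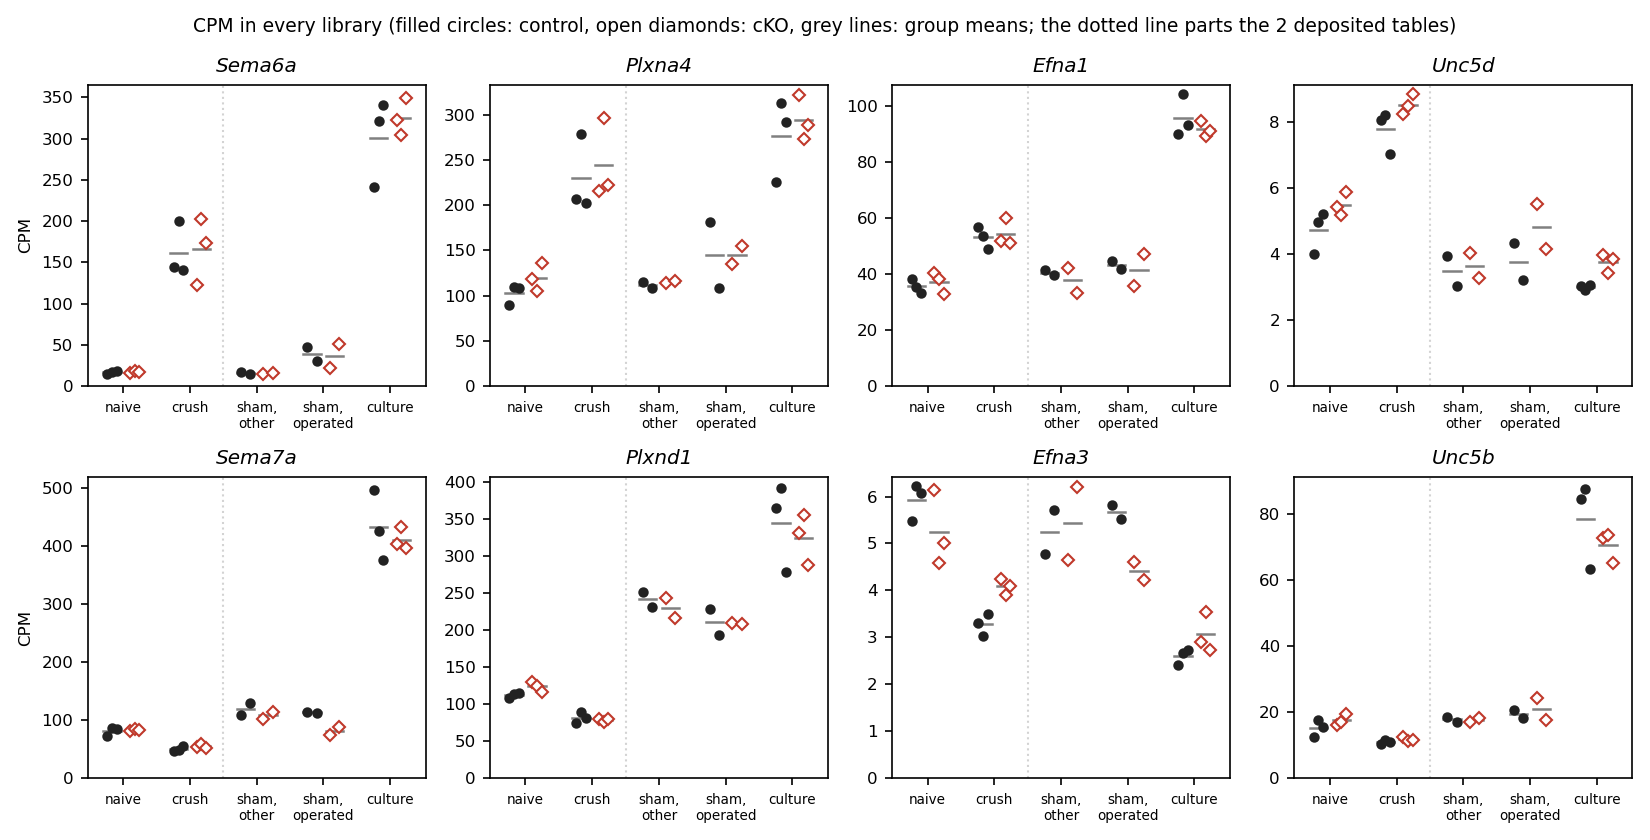
CPM of 8 guidance genes in each of the 26 libraries (control as filled circles, cKO as open diamonds, group means as grey lines, vertical axis from 0). Naive and crushed ganglia come from 1 deposited table, left of the dotted line, and sham ganglia and cultures from the other, so levels are compared within a side. Left of the line Sema6a is under 19 CPM in all naive libraries and above 120 after crush, and right of it 14.6 to 16.9 in other-side and 21.8 to 51.4 in operated sham ganglia.

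Promoter windows of the guidance genes were searched on both strands for 3 short motifs. These were GCGTG, the AP-1 motif TGANTCA and the motif TGACGTCA of CREB and ATF factors, none of which contains another. The RefSeq table held 78 windows for 60 of the 71 genes. GCGTG was in 41% of these windows and in 32.4% of all 32851 windows of the table. It was in 6 of the 11 windows of genes higher after crush (54.5%), 14 of the 21 of genes lower (66.7%) and 26.1% of those of genes not called or, for Robo3, not tested. Some genes have several windows. Counted by gene, GCGTG was in at least 1 window of 4 of the 7 genes higher, 12 of the 18 lower, 12 of the 35 others and 9500 of the 27025 genes of the table. TGANTCA was in 3.85% of the windows of guidance genes and 7.81% of all windows, and TGACGTCA in 1.28% and 1.79%. A match describes the letters in a window and not the binding of a factor.

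Plxnd1 and Sema4c are printed because the Plxnd1 window, chr6:115994956-115995255, held 5 GCGTG, a number that only Epha8 also reached among the 78 windows, and the Sema4c window, chr1:36558332-36558631, was the only window of a gene higher after crush with a TGANTCA match. Capitals mark these motifs.
Plxnd1: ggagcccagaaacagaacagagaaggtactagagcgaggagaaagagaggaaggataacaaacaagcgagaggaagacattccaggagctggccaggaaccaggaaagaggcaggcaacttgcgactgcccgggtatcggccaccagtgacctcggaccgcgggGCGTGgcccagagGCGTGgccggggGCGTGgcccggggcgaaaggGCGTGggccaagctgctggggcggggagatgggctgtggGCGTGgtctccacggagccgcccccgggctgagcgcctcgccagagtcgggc
Sema4c: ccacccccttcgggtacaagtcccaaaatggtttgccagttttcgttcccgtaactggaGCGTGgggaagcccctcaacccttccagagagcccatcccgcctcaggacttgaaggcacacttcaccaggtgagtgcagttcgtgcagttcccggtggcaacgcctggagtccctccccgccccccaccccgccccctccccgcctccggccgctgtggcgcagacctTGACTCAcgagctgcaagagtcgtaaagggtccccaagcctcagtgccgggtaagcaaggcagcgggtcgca
Plxnd1 fell and Sema4c rose, as given above. In Sema4c the TGANTCA match reads TGACTCA, beside 1 GCGTG further upstream. The span of Sema4c also holds exons of D430040D24Rik, with 27% as many counts and no call after crush (-0.13 ± 0.0929).

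The crush response was then read within each genotype. In control mice 25 of 70 guidance genes were called (35.7%; 11 higher and 14 lower), where 21.6% of all genes were called, 12.9% higher and 8.73% lower. This count fell to 16 without injured control replicate 1 and to 15 without injured control replicate 2. In cKO mice 18 were called (25.7%; 8 higher and 10 lower), where 18.6% of all genes were, 10.7% higher and 7.89% lower. The 15 genes called in both genotypes had the same direction in both: Efna1, Epha1, Plxna4, Rgmb, Sema4c, Sema4f, Sema6a and Unc5d higher, and Efnb1, Efnb2, Epha6, Nrp2, Plxnd1, Sema7a and Unc5b lower.

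Another 10 were called in control only. Of these Slit1 (0.59 ± 0.145), Plxnc1 (0.25 ± 0.074) and Sema6d (0.22 ± 0.0714) were higher. Efnb3 (-0.96 ± 0.234), Efna3 (-0.86 ± 0.12), Robo1 (-0.52 ± 0.136), Slit2 (-0.48 ± 0.114), Sema6c (-0.41 ± 0.119), Ephb1 (-0.39 ± 0.126) and Sema5b (-0.25 ± 0.0828) were lower. In cKO mice alone Plxna3 (-0.27 ± 0.0786), Sema4b (-0.24 ± 0.0711) and Sema4d (-0.21 ± 0.0651) were called lower. These lists do not show that the genotypes differ: the interaction of genotype and crush called 0 of the 70 guidance genes and 0% of all genes (5 guidance genes, 7.14%, at an unadjusted p under 0.05, against 2.95% of all genes; DESeq2 0).

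The smallest interaction p belonged to Efna3, whose fall was 0.50 ± 0.169 smaller on the log2 scale in cKO than in control mice (adjusted p 1, edgeR). Its values after crush were 3.3, 3.03 and 3.5 CPM in control and 4.25, 3.91 and 4.1 CPM in cKO mice, with no overlap. The cKO crush effect rests on unlike sexes, 3 naive females against 1 injured female and 2 injured males by transcripts. With sex as a covariate 5 of the 18 cKO calls held (Plxna4, Plxnd1, Sema6a, Sema7a and Unc5d), and 12 were called without the 2 libraries against their label. With the genotypes averaged 23 of the 31 calls held with sex as a covariate, and those lost were Efnb3, Epha4, Epha5, Ntn4, Sema3c, Sema3d, Sema6b and Slit1. Without the 2 libraries 29 held, and Sema3c and Sema6b were lost. The shares over all genes in these fits are not given here, so the losses cannot be called particular to guidance genes.

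No guidance gene was called in edgeR between cKO and control mice in any of the 5 settings (naive, crush, culture and both sham sides), except Sema7a on the operated sham side when the filter on low counts was left out. In naive ganglia 0 of 70 were called in cKO against control mice (11, or 15.7%, at an unadjusted p under 0.05; DESeq2 0), where 0.00941% of all genes were called and 5.79% had an unadjusted p under 0.05. The smallest p belonged to Plxna3, which measured 10.4, 11.2 and 10.3 CPM in control and 14.1, 13.4 and 11.9 CPM in cKO mice, without overlap (0.30 ± 0.0784, adjusted p 0.754, edgeR). After crush 0 of 70 were called (3, or 4.29%, unadjusted; DESeq2 0), against 0.00941% of all genes called and 2.72% unadjusted. Plxna3 again had the smallest p, at 9.46, 9.62 and 9.22 CPM in control and 10.6, 10.9 and 11.4 CPM in cKO mice (0.21 ± 0.0801, adjusted p 1, edgeR).

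In the cultures 0 of 71 guidance genes were called between genotypes (13, or 18.3%, unadjusted; DESeq2 0), against 0% of all genes called and 8% unadjusted. Ephb6 had the smallest p, at 13, 16.6 and 14.9 CPM in control and 21.5, 18.9 and 19.3 CPM in cKO cultures, without overlap (0.40 ± 0.0992, adjusted p 0.452, edgeR). No marker was called in this comparison. The 5 endothelial markers were at -0.35 to -0.16, the neutrophil markers tested at 1.12 to 1.24 and the neuronal markers at -0.21 to 0.41. Medians of the other cell types were -0.36 to 0.072. The part of these markers in the Ephb6 difference was not tested. Control replicate 1 was the shallowest culture library, and without it 0 guidance genes were called as well.

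Sham surgery served as the background of an operation without crush. Between the operated and the other side, genotypes averaged (4 against 4 ganglia of 4 mice), 0 of 71 guidance genes were called in edgeR (9, or 12.7%, unadjusted), against 0.00451% of all genes called and 7.56% unadjusted. Sema6a had the smallest p. It measured 16.9 and 15.2 CPM in control and 14.6 and 16.1 in cKO mice on the other side, and 47.7 and 30.8 in control and 21.8 and 51.4 in cKO mice on the operated side. Every operated ganglion was above every ganglion of the other side, at a log2 difference of 1.28 ± 0.258 with an adjusted p of 0.287 (edgeR). DESeq2 called this gene (adjusted p 0.0224), and so did edgeR without a filter on low counts (adjusted p 1.88e-06).

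Skeletal muscle markers were uneven over the sham libraries. Ckm measured 365 CPM in the operated ganglia of cKO mouse 2, 13.7 and 58.8 CPM on the other side in control mice and 67.9 and 5.11 on the other side in cKO mice, and 1.17 to 4.4 CPM in the remaining 3 operated ganglia. The part of this in the sham results was not tested.

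Plxna4 measured 115 and 108 CPM in control and 114 and 116 in cKO mice on the other side, and 181 and 108 in control and 135 and 155 in cKO mice on the operated side. The sides overlapped, and the log2 difference was 0.36 ± 0.142 (adjusted p 0.63, edgeR, and 0.0359 without a filter on low counts). Of the 31 genes called after crush, 24 had the same sign of the sham difference, a sign shared by 76.2% of all genes called after crush, and the difference ran from -0.27 for Sema5b to 1.28 for Sema6a. The sham and the crush libraries share no mice and come from different deposited tables, and all sham mice were male while the naive and injured mice were mostly female, so the sizes of these differences were not compared by a test.

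Genotype within the sham ganglia also gave 0 calls in edgeR. On the operated side 4 guidance genes (5.63%) had an unadjusted p under 0.05, against 0.00451% of all genes called and 7.59% unadjusted, and Sema7a had the smallest p. It measured 115 and 113 CPM in control and 74.8 and 87.8 CPM in cKO mice (-0.47 ± 0.108, adjusted p 0.498, edgeR, while DESeq2 gave 0.00628 and edgeR without a filter on low counts 0.00119). In the same comparison no marker was called, but the 4 neutrophil markers summed to 126 to 177 CPM in control and 239 to 502 CPM in cKO mice (median log2 difference 1.37). The median was 0.41 for fibroblast, 3.68 for adipocyte and 6.22 for skeletal muscle markers. The last 2 came mainly from cKO mouse 2, with Myh4 at 518 CPM against 4.36 in cKO mouse 1 and Adipoq at 8.39 against 1.24. For macrophage markers it was 0.39, for T cell markers 0.32 and for the other cell types -0.12 to 0.08. The part of these markers in the Sema7a difference was not tested. On the other side 6 (8.45%) had an unadjusted p under 0.05 (DESeq2 called 0), against 0% of all genes called and 5.23% unadjusted. Efnb1 had the smallest p, at 34.1 and 32.4 CPM in control and 27.3 and 27.5 CPM in cKO mice (-0.27 ± 0.0839, adjusted p 0.88, edgeR). No marker was called there, but the 5 endothelial markers were at -0.54 to -0.29. Medians were -0.40 for mural cell, -0.43 for T cell and -2.57 for adipocyte markers. They were 0.40 for neutrophil and 0.22 for myelinating Schwann cell markers, and -0.13 to 0.11 for the other cell types. The part of these markers in the Efnb1 difference was not tested.

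Cultures were set against the ganglia of the other side of sham mice from the same table, with genotypes averaged. Here 61 of 71 guidance genes were called (85.9%; 32 higher and 29 lower), where 75.5% of all genes were, 39.1% higher and 36.4% lower. The median log2 fold change was 0.15 over guidance genes and 0.038 over all genes. Culture, dissociation, sex (female cultures, male sham mice) and surgery differ together and cannot be told apart.

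Neuronal markers took a smaller share of RNA in the cultures than in whole ganglia. All 6 were lower, and they summed to 3203 to 3861 CPM in the cultures against 7451 to 8484 CPM in the other-side ganglia. All 5 endothelial markers (Pecam1, Cdh5, Cldn5, Flt1 and Tek) were higher, by a median of 2.83 on the log2 scale, and summed to 890 to 1314 CPM against 71.3 to 125 CPM. All 5 markers of myelinating Schwann cells were lower, as were 4 of 4 neutrophil markers (median -2.96), 3 of 3 skeletal muscle markers (median -6.25) and 2 of 2 adipocyte markers (median -2.83). Other lists were mixed. Satellite glia had 2 markers higher and 3 lower (Fabp7 at -4.83 and Kcnj10 at -3.44), macrophages 2 higher and 2 lower (Cd68 at 2.29 and Aif1 at -2.39), fibroblasts 1 higher (Pdgfra at 2.07) and 3 lower, mural cells 2 higher and 1 lower, and T cells 2 of 4 lower. The part of these shifts in the culture results below was not tested.

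Epha2 and Robo4 had the largest rise in culture relative to ganglia. Epha2, an Eph receptor of endothelium and epithelium, measured 68.5, 73.8 and 57.6 CPM in control and 62, 68.3 and 64.3 in cKO cultures, against 3.66, 2.95, 1.98 and 2.45 CPM in the other-side ganglia (log2 fold change 4.60 ± 0.138). Robo4, a robo of endothelial cells, measured 134, 129 and 94.3 CPM in control and 99.1, 101 and 89.8 in cKO cultures, against 5.55, 5.63, 2.57 and 4.98 CPM (4.55 ± 0.181). No culture overlapped a ganglion for either gene. Neither was called after crush: Epha2 was at a mean of 3.46 CPM in naive and 3.02 CPM in injured ganglia, and Robo4 at 6.17 and 5.82 CPM.

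**Figure D4:**
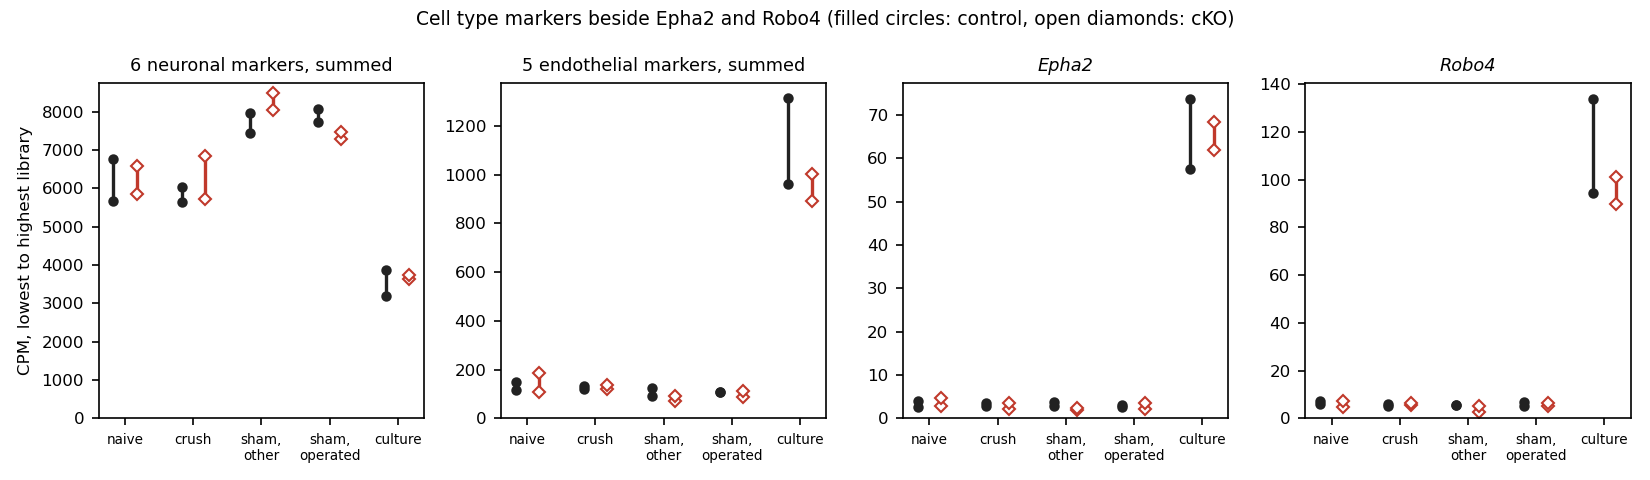
Range from the lowest to the highest library of a group, in CPM from 0, for the sum of 6 neuronal markers, the sum of 5 endothelial markers, Epha2 and Robo4, with control as filled circles and cKO as open diamonds. The endothelial sum, Epha2 and Robo4 are high in the cultures, where the neuronal sum is lowest.

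The promoter of Epha2 is printed because it was the only window of a guidance gene with TGACGTCA, here at chr4:141300971-141301270, with that motif and GCGTG in capitals.
Epha2: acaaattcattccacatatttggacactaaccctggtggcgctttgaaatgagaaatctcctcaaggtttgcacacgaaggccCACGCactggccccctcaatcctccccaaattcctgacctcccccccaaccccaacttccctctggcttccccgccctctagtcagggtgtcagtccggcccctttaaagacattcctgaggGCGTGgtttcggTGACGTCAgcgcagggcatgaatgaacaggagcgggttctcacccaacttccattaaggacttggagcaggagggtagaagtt

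Sema6a was the third guidance gene by size in culture. It measured 241, 321 and 341 CPM in control and 323, 305 and 349 in cKO cultures, against 16.9, 15.2, 14.6 and 16.1 CPM in the other-side ganglia (4.32 ± 0.241, adjusted p 5.72e-09, edgeR). The next in size were Sema6b (2.22 ± 0.128), Unc5b (2.07 ± 0.113), Sema7a (1.89 ± 0.088), Ephb4 (1.81 ± 0.141), a receptor of veins, and Sema3c (1.77 ± 0.0786). Sema7a reached 376 to 497 CPM in the cultures against 103 to 129 CPM in the other-side ganglia.

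Lower in culture were Sema5a (-2.45 ± 0.134), Plxnb3 (-1.93 ± 0.123), which encodes the receptor for semaphorin 5A, Ephb1 (-1.82 ± 0.17), Unc5c (-1.65 ± 0.169), Ephb6 (-1.64 ± 0.0672), Epha6 (-1.55 ± 0.193), Sema6c (-1.32 ± 0.0983) and Slit3 (-1.27 ± 0.162). Sema5a measured 6.94 to 16.8 CPM in the cultures and 58.6 to 87.3 CPM in the other-side ganglia. Ephb1 and Epha6 share their span with other counted genes that were lower too (-2.22 and -1.79).

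Crush and culture share no libraries, and some guidance genes went the same way in both while others went opposite ways. Of the 11 genes higher after crush 6 were higher in culture (Efna1, Epha1, Plxna4, Sema3c, Sema4c and Sema6a), 2 were lower (Epha5 and Rgmb) and 3 were not called (Sema4f, Slit1 and Unc5d). Of all genes higher after crush 68% were higher and 16.2% lower in culture. Of the 20 lower after crush 8 were higher in culture (Efnb1, Efnb2, Nrp2, Plxnd1, Sema3f, Sema6b, Sema7a and Unc5b), 9 were lower and 3 were not called. Of all genes lower after crush 10.1% were higher and 77.3% lower in culture. Sema7a, Plxnd1 and Unc5b, which fell by 0.63, 0.56 and 0.53 on the log2 scale after crush, were higher by 1.89, 0.51 and 2.07 in culture.

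**Figure D5:**
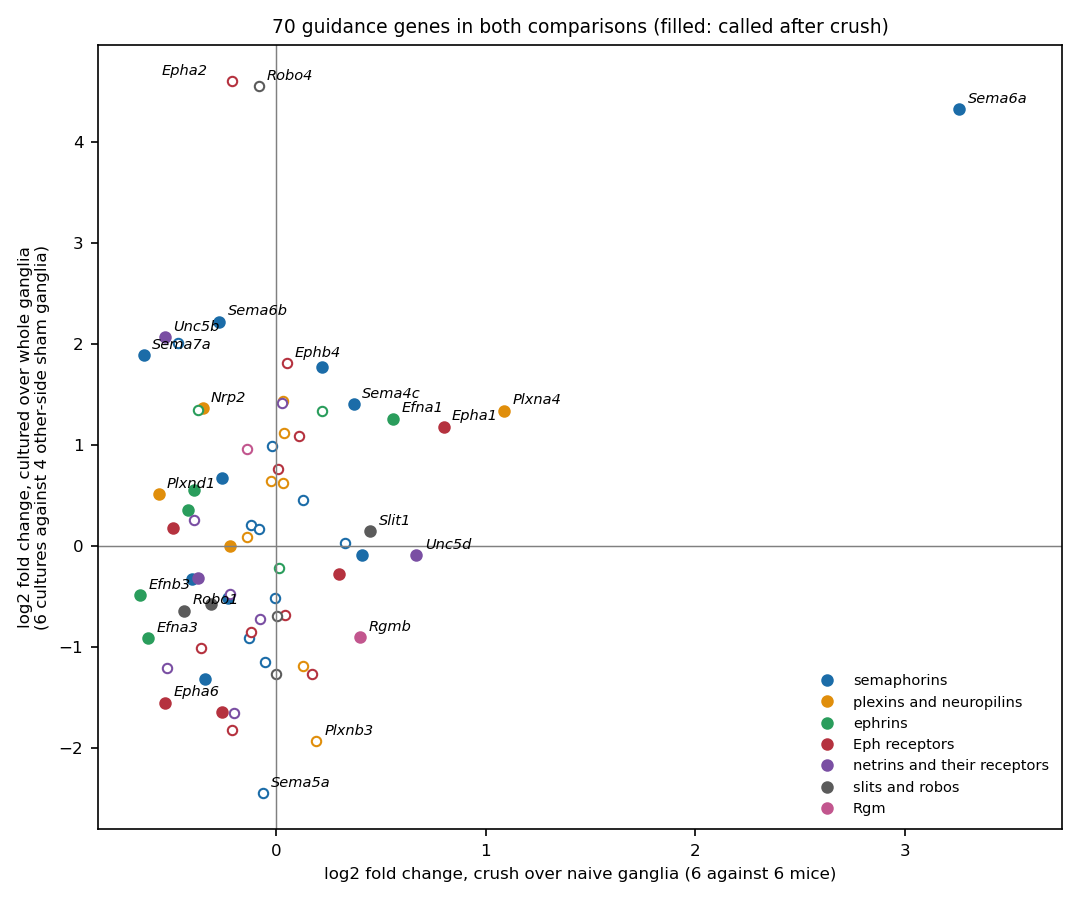
Log2 fold change after crush (horizontal, 6 injured against 6 naive mice) and in culture (vertical, 6 cultures against 4 other-side sham ganglia) for the 70 guidance genes tested in both, coloured by family and filled where called after crush. Sema6a is far to the upper right (3.26 and 4.32), and Epha2 and Robo4 are high in culture alone.

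Besides the genes above, 60 other genes of guidance pathways were read from the same fits, and 59 were found and tested. The list holds further ligands and surface proteins as well as effectors below the receptors. After crush 20 were higher and 11 lower, with a median of 0.064, where 18.4% of all genes were called higher and 15.7% lower. The largest change was that of Flrt3, a transmembrane protein that binds Unc5 receptors and robos, from 11.5 to 12.8 CPM in the 6 naive libraries to 107 to 170 CPM in the 6 injured ones (log2 fold change 3.58, adjusted p 2.24e-09, edgeR). Rnd1, a small GTPase that binds A-type plexins, went from 2.09 to 3.41 CPM up to 6.97 to 12.3 CPM (1.72), and Myo10, a myosin that carries netrin receptors into filopodia, rose by 0.96. Crmp1, a mediator of semaphorin 3A signalling, rose by 0.63 and Rock2, a kinase below RhoA, by 0.62.

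The netrin-G ligands Ntng1 (-0.70) and Ntng2 (-0.54), which are membrane-bound and do not use Dcc, and the FLRT family member Flrt1 (-0.79) fell. Flrt3 in the sham ganglia was 6.03 to 7.21 CPM on the other side and 7.5 to 21.3 CPM on the operated side, where it was not called. In culture 28 of the 59 were higher and 25 lower, where 39.1% of all genes were called higher and 36.4% lower, with Flrt3 at 121 to 146 CPM (4.36). No gene of this list was called between genotypes in naive or injured ganglia.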

How the data were processed

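RNA of mouse dorsal root ganglia or cultures was extracted with RNeasy Plus Mini and made into libraries with TruSeq Stranded mRNA reagents, as the labels' protocols say. The submitters' processing notes name Trim Galore, HISAT2, featureCounts and mm10, without versions or roles. The authors deposited, in each of 2 tables, raw counts per gene and FPKM values. The deposited FPKM matched a length equal to the whole gene span within 0.1% for 99% of 28185 genes with counts. Counts were used as deposited, with 0 value columns left unmapped. The opposite-strand Tsix had about the count of Xist in female libraries, so overlapping genes were not parted by strand.

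Genes with low counts were removed with filterByExpr (minimum count 10, total 15), libraries were scaled by TMM and tested in edgeR 4.0.16 (R 4.3.3, limma 3.58.1) by the quasi-likelihood test. P-values were adjusted by Benjamini-Hochberg over all genes of a fit, and 0.05 was the threshold. Separate fits covered the 12 naive and injured libraries (21261 genes), the 6 cultures (23295) and the 8 sham libraries (22160). Cultures were compared with other-side sham ganglia in a fit of all 14 culture and sham libraries (24192 genes). The operated sham ganglia thus entered the filter, scaling and spread of that fit. SE is the log2 fold change divided by the root of F. CPM values were scaled within each table, and levels are compared within a table only. The procedure was tested on counts simulated for the 12 naive and injured libraries only, with few genes changed. The sham and culture fits were not covered by that test. Each replicate was a separate mouse or culture, and 2 libraries of a group never agreed within sampling noise (chi-square per degree of freedom 3.14 to 36.3).

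Alternatives were DESeq2 1.42.0, RLE scaling, no and stricter count filters, each replicate left out, sex by transcripts as a covariate, no libraries against their labelled sex, and a replicate block. The replicate numbers were not taken to pair libraries between groups. Deviations of same-numbered libraries correlated from -0.418 to 0.412 in ganglia and 0.0642 to 0.221 in cultures. The 2 sides of a sham mouse are paired by the labels (0.23 in control, -0.185 in cKO). These values lie within the range above, so the correlations cannot show whether the numbers pair libraries.

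Named after crush were up to 15 called genes with the smallest p in each direction (11 higher and 15 lower, 26 in all), and Epha4, Ntn4, Sema3d, Sema3f and Sema6b, outside that rule, were named after their values were seen, as were uncalled receptors and ligands of called genes. In other comparisons the called genes or the smallest p were named, and in culture the 8 largest in each direction. Members and lists were chosen with earlier results of these data known.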

Additional observations from a re-analysis of the deposited data

Results flagged for a closer look

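In 8 of 260 pairs of settings compared for the 26 named crush genes (10 pairs of the 5 genotype comparisons), all cKO libraries lay above all control libraries in 1 setting and below them in the other. That is 3.08% of the pairs, against 2.07% over all genes tested in the 5 settings. Neither difference within a pair passed the adjusted threshold in edgeR, and the difference between the settings was not tested. Values are log2 differences, cKO over control.

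Efna3, an A-type ephrin, was at 0.32 in injured ganglia and 0.21 in cultures, and at -0.35 in operated sham ganglia. Slit2, a secreted repellent, was at 0.17 in injured ganglia, 0.25 in cultures and 0.25 in the other-side sham ganglia, and at -0.24 in operated sham ganglia. Ephb6 was at 0.40 in cultures, and at -0.12 in operated and -0.064 in other-side sham ganglia. Sema4f was at 0.36 in cultures and -0.13 in other-side sham ganglia. With 2 sham libraries per genotype, such separations need only 2 libraries on each side.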

How the results depend on the processing

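Of the 26 named crush genes 22 kept direction and call under all 19 alternatives run for each. Slit1, Epha5 and Efnb3 lost the call with sex as a covariate, and Sema3c under 6 alternatives. None of the 26 changed direction. They were picked by the smallest p. Of the called genes left out, Epha4, Ntn4, Sema3d and Sema6b lost the call with sex as a covariate and Sema3f kept it. The crush count with genotypes averaged was 29 to 33 when 1 library was left out, 24 with sex as a covariate and 31 with a replicate block. In control mice it was 15 to 26 with 1 library left out, 16 without injured control replicate 1 and 15 without injured control replicate 2, and 23 with the replicate block. In cKO mice it was 5 with sex as a covariate, 12 to 15 with 1 library left out and 15 with the block. The replicate block changed none of the 0 counts between genotypes, and the sham side count stayed 0 with the mouse as block and, added after seeing the data, with the cKO sides crossed.

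Between sham sides DESeq2 called 1 gene and the fit without a filter 3 (Sema6a, Plxna4 and Sema5a), and between genotypes on the operated side both called 1, Sema7a; the cause was not tested. The culture count was 55 to 61 with 1 library left out and 52 in control alone. Groups held 2 or 3 libraries, and Robo3 was too low to be tested in naive and injured ganglia at this depth.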
